A study of Mus musculus with 2 samples.

Results

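The cells described here are Foxp3 regulatory T cells among sorted CD45+ immune cells from mouse tumours. They were chosen from measured values, barcode by barcode, in raw counts of unique molecular identifiers (UMIs, each standing for 1 captured RNA molecule). A barcode, the label of 1 droplet, was kept with at least 200 detected genes and at most 10% mitochondrial UMIs. It was then taken with at least 1 UMI of Foxp3, at least 2 UMIs summed over the T cell receptor chains Cd3d, Cd3e and Cd3g, no UMI of Cd8a or Cd8b1, and at most 1 UMI summed over the natural killer (NK) cell genes Ncr1, Klrb1c and Klre1. This rule took 543 of 36259 kept barcodes, 310 of 20415 in the wild-type (WT) library and 233 of 15844 in the Ythdf2 knockout (KO) library. Barcodes that also held at least 20 UMIs of the 6 macrophage and monocyte genes C1qa, C1qb, C1qc, Csf1r, F13a1 and Ms4a6c per 10000 UMIs are given apart as barcodes with macrophage RNA: 196 WT and 148 KO. The remaining 199, 114 WT and 85 KO, are called Foxp3+ T barcodes below.

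The study profiled tumours from C57BL/6 mice with or without Ythdf2, which encodes a protein that binds RNA carrying the m6A modification. The labels speak of Ythdf2 KO tumours, the design text of conditional knockout mice and the series title of a role within the tumour, so the sources do not settle which cells lost the gene. Each genotype gave 1 library of 10x Genomics 5′ single-cell RNA, and the number of mice behind each, the Cre driver and the tumour type are not given in the sources used here. Library and genotype therefore cannot be told apart, no test between genotypes exists, and all intervals below are exact 95% intervals that cover counting error only.

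Regulatory T cells are CD4 T cells that restrain other immune cells and are specified by the transcription factor Foxp3. They consume interleukin 2 through its high-affinity receptor chain CD25, encoded by Il2ra, strip costimulatory ligands from antigen-presenting cells through CTLA-4, and release interleukin 10 and active TGF-beta. In tumours they commonly carry activation receptors of the TNF receptor family such as OX40 (Tnfrsf4), GITR (Tnfrsf18) and 4-1BB (Tnfrsf9), and those made in the thymus commonly express Helios (Ikzf2).

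In the Foxp3+ T barcodes the median depth was 7945.5 UMIs in WT (range 534 to 33406) and 8962 in KO (793 to 39653), from 979086 and 959429 UMIs in all. Kept barcodes of the whole libraries had medians of 5674 and 5753 UMIs. The libraries shared 96 kept barcode sequences, and 1 WT Foxp3+ T barcode and no KO one was among them. Ythdf2 itself had 54 UMIs in WT and 53 in KO Foxp3+ T barcodes, which is 55.2 counts per 1000000 UMIs (CPM) in each and a KO over WT ratio of 1.00 (0.67 to 1.49). These counts were the same in both libraries, and since the sources leave unsettled which cells lost the gene, and UMIs at the 5′ end may come from a transcript without the deleted part, they check no label.

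Markers of other cells were measured within the Foxp3+ T barcodes because many droplets held more than T cell RNA. The 10 macrophage markers summed to 42.0 UMIs per 10000 in WT and 47.2 in KO, against 250 and 218 in macrophage barcodes, and no macrophage marker was at 0. The 8 neutrophil markers summed to 28.6 and 28.1 per 10000, against 862 and 620 in neutrophils, and 10 barcodes in each library held 20 or more. Myeloid RNA was thus the main foreign component. The 6 NK markers summed to 3.13 in WT and 1.07 in KO, against 80.3 and 80.1 in NK cells, with Klra8 at 0 in WT and Klre1 at 0 in KO. Gzma, the granzyme A gene, made up 290 of the 306 UMIs of that sum in WT and 86 of 103 in KO, and the other 5 NK markers gave 0.16 and 0.18 per 10000. The 9 dendritic cell markers gave 3.76 and 2.84, against 27.8 and 18.0 in mature dendritic cells, with Clec9a at 0 in both libraries. Lymphocytes other than T cells left fewer traces, but the rule itself limits the NK genes Ncr1, Klrb1c and Klre1. The 6 B cell markers gave 0.08 and 0.10, against 43.0 and 45.4, with Ebf1 at 0 in WT and Ms4a1 at 0 in KO. The gamma-delta T cell markers gave 0.28 and 0.02, while Col1a1 and Krt8 of the tumour or stromal list were at 0 in both libraries. The sums of the macrophage markers, of the neutrophil markers and of the NK markers other than Gzma were thus similar in both libraries. The rule limits 6 of the 10 macrophage markers and 3 of these 5 NK markers in each barcode. Low or similar sums of those 2 kinds are therefore partly set by the rule. Gzma was higher in WT, and so were the gamma-delta T cell markers, with 27 UMIs in WT and 2 in KO. Similar sums do not mean that each gene was alike: Apoe, a macrophage marker, was lower in KO, as given below.

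The markers that the rule did not use were common in these barcodes, and 3 of the 4 were detected more often than in conventional CD4 T barcodes. Il2ra was detected in 89.5% of WT and 90.6% of KO Foxp3+ T barcodes, Ikzf2 in 93.0% and 89.4%, and Tnfrsf4 in 95.6% and 92.9%. Conventional CD4 T barcodes had 54.9% and 63.2% for Il2ra, 44.0% and 36.8% for Ikzf2, and 62.6% and 68.4% for Tnfrsf4. Ctla4 did not set the Foxp3+ T barcodes apart, with 43.9% and 52.9% against 50.5% and 54.4% of conventional CD4 and 67.6% and 58.5% of CD8 T barcodes. At least 3 of these 4 genes were present together in 89.5% and 89.4% of the barcodes, against 46.2% and 43.9% of conventional CD4 T barcodes, 10.0% and 8.3% of NK barcodes and 0.8% and 0.6% of B cell barcodes. Because detection grows with depth, each barcode was also thinned to 1000 UMIs, which left out 1 shallower barcode in each library. At that depth Tnfrsf4 was present in 68.1% of WT and 59.5% of KO barcodes, Il2ra in 46.0% and 38.1%, Ikzf2 in 42.5% and 38.1%, and Ctla4 in 23% and 23.8%, the last against 18.9% and 26.3% of conventional CD4 and 18.7% and 13.5% of CD8 T barcodes. The plot of detection at 1000 UMIs sets these shares beside the other cell classes. At least 3 of the 4 were then found in 25.7% (17.9 to 34.7) of WT and 21.4% (13.2 to 31.7) of KO barcodes, in 6.7% and 10.5% of conventional CD4 T barcodes and in no NK barcode. Cd4, also unused by the rule, had a UMI in 56.1% (46.5 to 65.4) and 57.6% (46.4 to 68.3) of Foxp3+ T barcodes, with 0.770% and 0.520% of NK barcodes and 1.27% and 0.885% of macrophages as the background level.

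**Figure D1:**
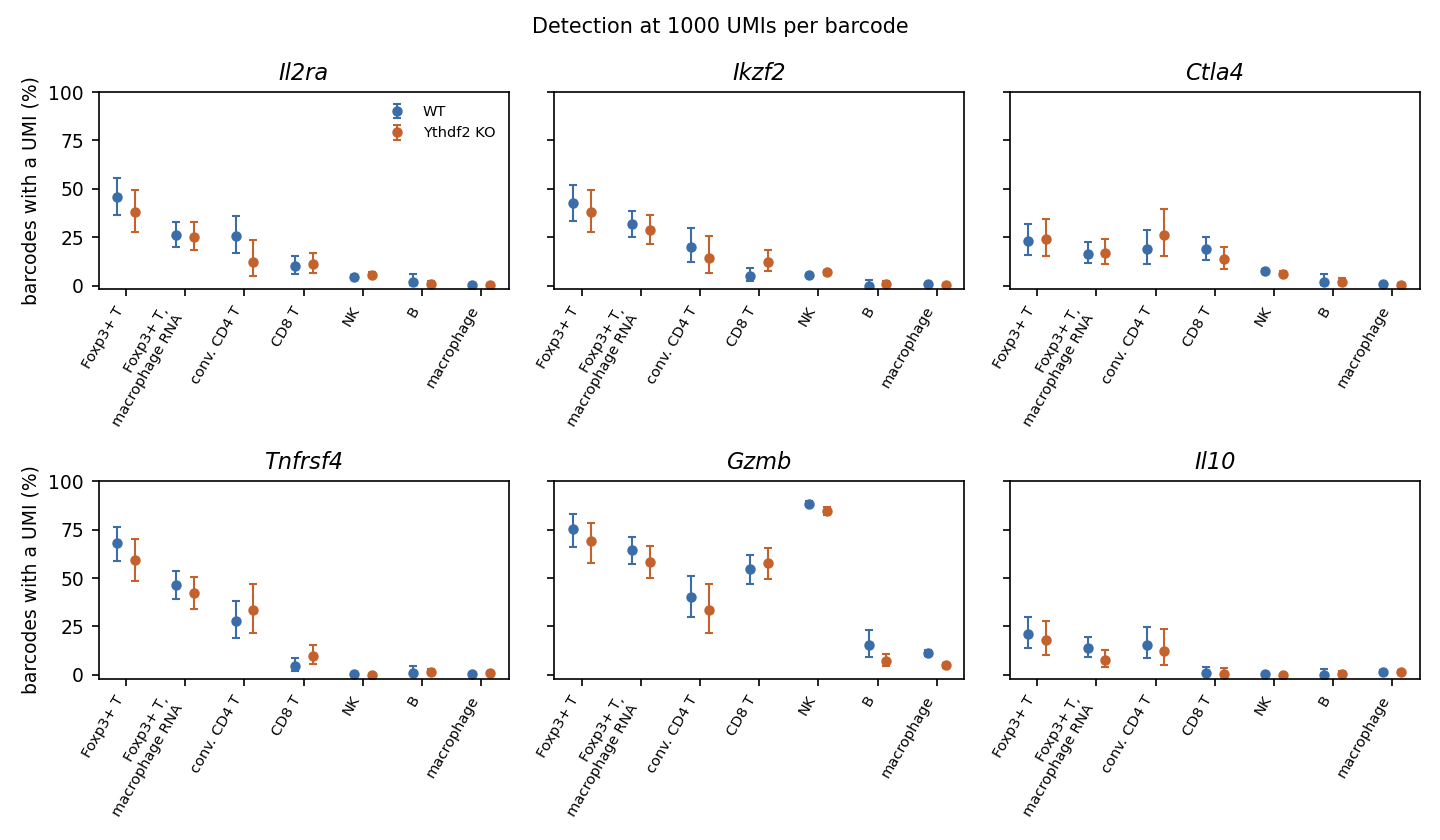
Share of barcodes with at least 1 UMI (%) of Il2ra, Ikzf2, Ctla4, Tnfrsf4, Gzmb and Il10 after thinning every barcode to 1000 UMIs, by cell class and library. Points are shares and bars exact 95% intervals that cover counting error only; Tnfrsf4 was found in 68.1% of WT and 59.5% of KO Foxp3+ T barcodes and near 0 in NK, B and macrophage barcodes, while Gzmb was also common in NK and CD8 T barcodes.

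Foxp3 itself chose the barcodes, so its values only describe them. Of the WT barcodes 43 held 1 Foxp3 UMI, 32 held 2, 22 held 3, 8 held 4 and 9 held more, up to 10. Of the KO barcodes 32 held 1, 20 held 2, 15 held 3, 8 held 4 and 10 held more, up to 9. Most members therefore rest on 1 or 2 molecules, and the background of stray Foxp3 UMIs is the measure of that risk. A Foxp3 UMI was present in 11 of 2598 WT and 1 of 1539 KO NK barcodes, in 7 of 1817 and 3 of 1130 macrophages, and in 0 of 118 and 0 of 314 B cell barcodes, which allows shares of up to 2.54% and 0.955%. The share was highest in CD8 T barcodes, at 6 of 194 (3.09%, 1.14 to 6.61) in WT and 3 of 167 (1.80%, 0.372 to 5.16) in KO. Whether the Foxp3 UMIs of CD8 T barcodes were stray was not tested. Barcodes with a single Foxp3 UMI carried each of the other 4 markers less often than those with 3 or more, and were shallower. The median depths were 6228 against 8984 UMIs in WT and 6811 against 12572 in KO. Ikzf2 was present in 88.4% against 100% in WT and 87.5% against 93.9% in KO. Il2ra was present in 86.0% against 94.9% and 84.4% against 97.0%, and Tnfrsf4 in 95.3% against 97.4% and 84.4% against 100%. Ctla4 was present in 46.5% against 48.7% and 43.75% against 63.6%.

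**Figure D2:**
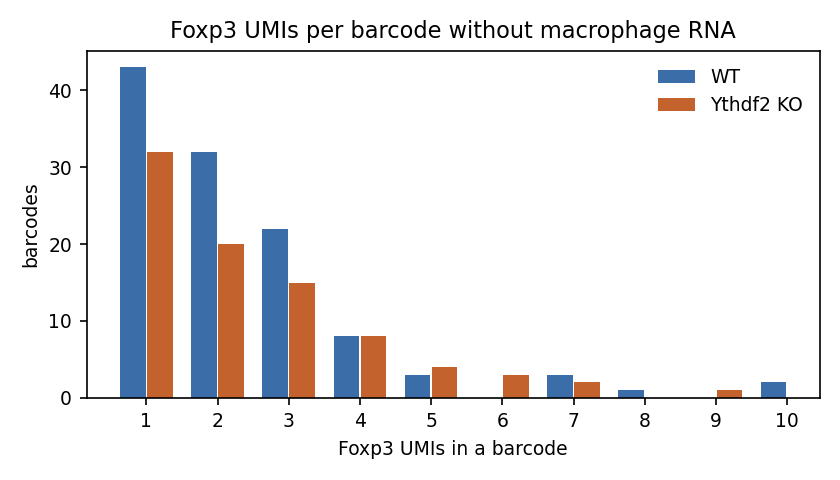
Number of Foxp3+ T barcodes without macrophage RNA by their count of Foxp3 UMIs, WT and KO. The bars go from 43 WT and 32 KO barcodes with 1 UMI to at most 3 barcodes at each count from 6 to 10.

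Barcodes just outside the rule were few on most of its sides. With the other conditions met, 5 WT and 4 KO barcodes had a Cd3 sum of 1 and 20 and 15 had none. A single Cd8a or Cd8b1 UMI kept out 2 and 5 barcodes and 2 or more kept out 10 and 4, and an NK sum of 2 kept out 2 and 2 and a sum of 3 or more 38 and 22. At the macrophage limit, 22 WT and 19 KO barcodes lay between 15 and 20 UMIs per 10000 and 24 and 18 between 20 and 25. Tnfrsf4 stood at 876 CPM below that limit and 756 above it in WT, and at 937 and 450 in KO. On the Foxp3 side, 712 WT and 451 KO barcodes met every other condition with no Foxp3 UMI, and 38.8% and 35.0% of them had an Il2ra UMI and 18.0% and 18.6% a Tnfrsf4 UMI.

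At the macrophage limit of 20 per 10000 the share of Foxp3+ T barcodes was about the same in both libraries. They made up 0.558% (0.461 to 0.670) of kept barcodes in WT and 0.536% (0.429 to 0.663) in KO, and 3.58% (2.97 to 4.29) and 3.69% (2.96 to 4.54) of barcodes with a Cd3 sum of 2 or more. With the barcodes holding macrophage RNA counted in, the shares of those T barcodes were 9.75% (8.74 to 10.8) and 10.1% (8.91 to 11.4). Set against conventional CD4 T barcodes, which had a Cd4 UMI, no Foxp3, Cd8, or Trdc UMI and were otherwise chosen alike (91 WT, 57 KO), Foxp3+ barcodes made up 55.6% (48.5 to 62.5) of the sum in WT and 59.9% (51.3 to 68.0) in KO. Foxp3+ barcodes needed no Cd4 UMI, and only 64 of 114 in WT and 49 of 85 in KO held it. These 2 percentages are therefore not the regulatory share of CD4 T cells. At a stricter macrophage limit of 5 per 10000, which left 48 WT and 22 KO barcodes, the KO over WT ratio of the share of kept barcodes was 0.591, against 0.961 at 20, and with no UMI of the 6 macrophage genes (32 and 16 barcodes) it was 0.644. The near equality was thus seen at the limit of 20 and with macrophage RNA counted in, and not at the stricter limits. Those limits left few barcodes, and their ratios are given without intervals. The intervals of WT and KO overlapped for each share at the limit of 20, and 1 library per genotype gives no spread between mice. Some regulatory T cells may have been missed. With every kept barcode thinned to 1000 UMIs only 23 WT and 18 KO barcodes passed the rule. Conventional barcodes with 20 or more UMIs per 10000 of the 5 marker genes numbered 25 of 91 in WT and 13 of 57 in KO. Whether these are regulatory T cells was not tested. Stray Foxp3 UMIs may also have added members. A Foxp3 UMI was held by 3.09% of WT and 1.80% of KO CD8 T barcodes, but whether those were stray was not tested. Of the 10 WT and 4 KO barcodes kept out by a Cd8 sum of 2 or more alone, 100% and 100% had a Tnfrsf4 UMI. An Il2ra UMI was present in 100% and 75% of them. The counts are therefore neither a lower nor an upper limit.

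Most T barcodes with Foxp3 also held macrophage RNA. The share was 63.2% (57.6 to 68.6) of the whole rule in WT and 63.5% (57.0 to 69.7) in KO. It was 51.6% and 48.6% for conventional CD4 T barcodes and 50% and 41.6% for CD8 T barcodes, and 14.7% and 15.9% for NK and 13.2% and 10.0% for B cell barcodes. Droplets with 2 cells, free RNA and cells attached to each other were not told apart here. Depth was greater with more macrophage RNA at each step in KO, and in WT up to the group at 20 to 50, as the plot by macrophage RNA shows. WT barcodes with none of the 6 genes had a median of 2903.5 UMIs, those above 0 and under 10 per 10000 had 8589, those at 10 to 20 had 10142, at 20 to 50 14298.5 and at 50 or more 13236. The KO medians were 2648, 6775, 14074, 15765.5 and 16753.5.

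In CPM, the sum of Il2ra, Ikzf2, Ctla4 and Tnfrsf4 was lower with each step of that order. It was 4545 in the WT barcodes with none of the 6 macrophage genes, then 3290, 2072, 1605 and 1490, and in KO 5147, 2714, 1643, 1422 and 1405. Counted per barcode, the same 4 genes differed little: the medians were 16.5, 27, 19.5, 20 and 21 UMIs in WT and 20, 23, 20.5, 19.5 and 18.5 in KO. A droplet with much macrophage RNA thus held about as many marker molecules as one without, in a larger total. Conventional CD4 T barcodes held medians of 5 and 6.5 UMIs of these genes in WT, without and with any UMI of the 6 macrophage genes, and 4 and 6 in KO. The summed CPM was thus lower where more macrophage RNA was present, but it was also lower with greater depth. When Foxp3+ T barcodes were ordered by depth alone, the sum was 5959 in the 38 shallowest WT barcodes. It was 3093 in the middle 38 and 1991 in the 38 deepest. In KO it was 4884, 2709 and 1420 in 29, 28 and 28 barcodes. Which part of the fall belonged to depth and which to RNA of other cells was not tested. CPM values of the Foxp3+ T barcodes are read beside those of the barcodes with none of the 6 macrophage genes, which were themselves shallow.

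**Figure D3:**
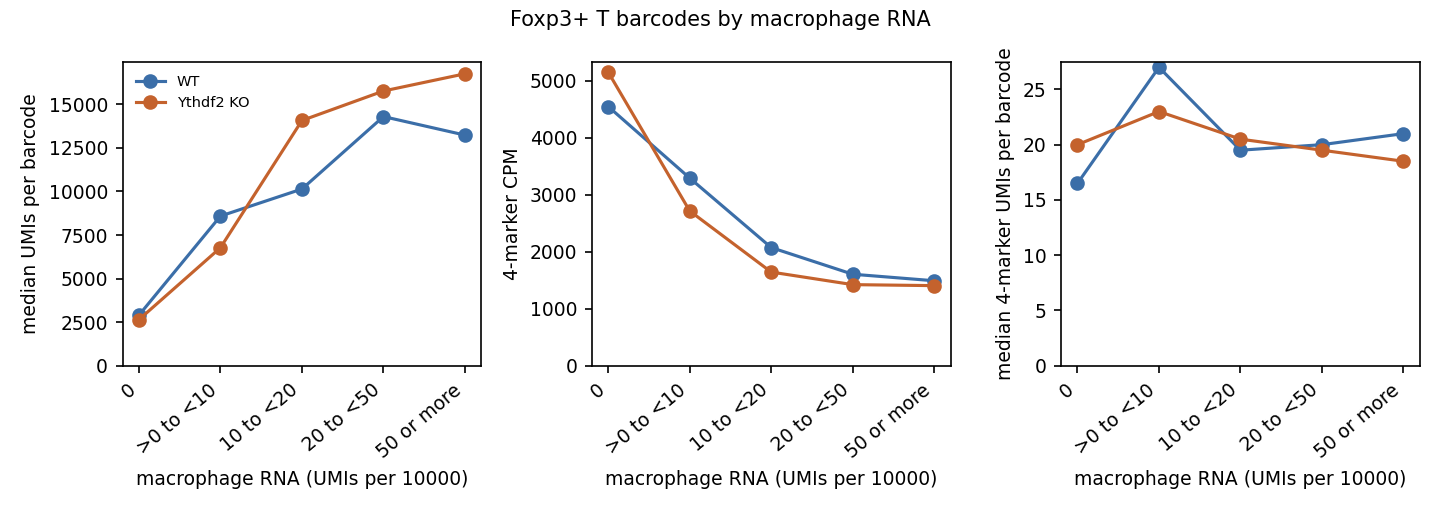
All Foxp3+ T barcodes of the whole rule, grouped by UMIs of the 6 macrophage genes per 10000, against the median UMIs per barcode, the summed CPM of Il2ra, Ikzf2, Ctla4 and Tnfrsf4, and the median UMIs of these 4 genes per barcode. From left to right the CPM is smaller at each step, 4545 to 1490 in WT and 5147 to 1405 in KO, and depth is greater at each step except the last in WT (14298.5 to 13236), while the count per barcode lies between 16.5 and 27.

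Some genes stood far above every class other than T cells. Of 4769 genes with at least 50 UMIs, 19 were at least 10 times the level of every such class in both libraries. Of these, Foxp3, Cd3d, Cd3e and Cd3g had been used to choose the Foxp3+ T barcodes and Cd4 to choose the conventional ones, and 1, Trac, is a receptor constant region. This list was drawn up after the values were seen and is a description. Of the remaining 13, Lrrc32, Itgb8, Sdcbp2, Itgae, Izumo1r, Icos, Neb, Penk, Cd5 and A430093F15Rik were also above conventional CD4 T barcodes in both libraries, and Cd6, Cxcr6 and Bcl11b were not. The counting interval of that ratio held 1 for Neb and A430093F15Rik in both libraries, for Penk in KO and for Cd5 in WT.

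Lrrc32 encodes GARP, the cell-surface anchor of latent TGF-beta. It was at 26.6 CPM (17.4 to 38.9) in WT and 28.1 (18.6 to 40.9) in KO Foxp3+ T barcodes, against at most 0.42 and 0.14 in any class other than T cells. Its level was 8.55 times (2.14 to 74.3) that of conventional CD4 T barcodes in WT and 3.12 times (1.09 to 12.3) in KO. The Foxp3+ T barcodes held 26 and 27 UMIs, and the conventional level was only 3.11 and 9.02 CPM, so the size of these ratios is poorly fixed. Itgb8, the integrin chain that frees active TGF-beta from GARP, was at 47.0 (34.4 to 62.7) and 39.6 (28.0 to 54.4), which was 2.16 and 3.51 times conventional CD4 T barcodes. Both genes of this TGF-beta activating pair were thus nearly absent from macrophages, and both were sparse, with a UMI of Lrrc32 in 14.9% and 22.4% of barcodes and of Itgb8 in 23.7% and 28.2%. Tgfb1, the cytokine they act on, is made by many cells and stood at 209 and 226, 1.23 and 1.30 times conventional CD4 T barcodes.

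Itgae encodes the CD103 integrin that binds E-cadherin on epithelial cells. It was at 102 CPM (83.1 to 124) in WT and 76.1 (59.6 to 95.7) in KO, 4.70 and 2.11 times conventional CD4 and 15.6 and 34.3 times CD8 T barcodes. Thinned to 1000 UMIs, it was detected in 15.9% and 14.3% of Foxp3+ T barcodes (43.9% and 36.5% unthinned) and in 2.2% and 5.3% of conventional CD4 T barcodes. Izumo1r, the folate receptor 4 of regulatory T cells, was at 125 and 84.4, with 1.78 and 2.50 times conventional CD4 and 24.8 and 23.8 times CD8 T barcodes. Penk, which encodes the opioid precursor proenkephalin, was at 38.8 and 26.1, with 2.50 (1.22 to 5.62) and 1.28 (0.580 to 3.13) times conventional CD4 T barcodes. Icos, a costimulatory receptor, was at 935 (875 to 997) and 711 (658 to 766), with 1.75 and 1.5 times conventional CD4 T barcodes. Icos was therefore shared with other CD4 T cells, whereas Itgae was rare in them.

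A comparison with conventional CD4 T barcodes was made within each library over genes with at least 20 UMIs in each. Conventional barcodes were shallower, with medians of 5658 and 6617 UMIs against 7945.5 and 8962. Their macrophage markers were at 35.4 and 44.1 per 10000, against 42.0 and 47.2, and their neutrophil markers at 37.6 and 39.9, against 28.6 and 28.1. Of 6304 genes, 32 (0.508%) were at least 2-fold higher in both libraries and 32 (0.508%) at least 2-fold lower. In WT alone the shares were 3.25% higher and 2.19% lower, and in KO alone 4.68% and 2.9%. The marker genes and lists described next were chosen with earlier results of these data known, so their counts are read only beside those shares.

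Of the 4 markers besides Foxp3, only Ikzf2 passed 2-fold in both libraries. Ikzf2 was at 554 CPM (508 to 602) in WT Foxp3+ T barcodes against 247 in conventional ones, and at 432 (391 to 475) against 176 in KO, ratios of 2.24 (1.88 to 2.69) and 2.45 (1.92 to 3.17). Tnfrsf4 was at 1259 (1190 to 1332) against 486 and at 965 (904 to 1029) against 523, ratios of 2.59 and 1.85. Il2ra was at 593 (546 to 644) against 356 and at 445 (404 to 489) against 241, ratios of 1.67 and 1.85. Ctla4 was at 384 (346 to 425) against 343 and 324 (289 to 362) against 259, ratios of 1.12 and 1.25. A ratio interval is given here for Ikzf2 only, and it lay above 1 in each library. Ctla4 differed least between the 2 kinds of CD4 T barcode.

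Among 12 suppressive mediators with enough UMIs, 2 were at least 2-fold higher in both libraries, Lrrc32 and Itgb8, and 1, Nrp1, was at least 2-fold lower, with a median log2 ratio of 0.41 in WT and 0.31 in KO beside 0.05 and 0.04 over all genes. Il10, the suppressive cytokine, was at 307 (274 to 344) against 213 and 144 (121 to 170) against 96.9, ratios of 1.45 and 1.48. Gzmb, the serine protease granzyme B, was at 2451 (2354 to 2551) against 812 and 1760 (1677 to 1846) against 1021, ratios of 3.02 and 1.72. Gzmb was nearly universal in Foxp3+ T barcodes, with 97.4% and 96.5% unthinned and 75.2% (66.2 to 82.9) and 69.0% (58.0 to 78.7) at 1000 UMIs. At that depth it was found in 40% and 33.3% of conventional CD4, 88.4% and 84.7% of NK, 15.3% and 7.4% of B cell and 11.1% and 4.9% of macrophage barcodes. In barcodes with none of the 6 macrophage genes Gzmb was higher still, at 4376 in WT and 5044 in KO, against 444 and 1680 in conventional CD4 T barcodes. Areg, the growth factor amphiregulin, was below conventional CD4 T barcodes, with ratios of 0.80 and 0.29.

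Of 8 cytotoxic genes 1, the perforin gene Prf1, was at least 2-fold higher in both libraries, with ratios of 2.90 and 4.47. The cytotoxic median was 1.26 in WT and 0.23 in KO, and with equal weight for each barcode the WT median was -0.0195. Inhibitory receptors and ectoenzymes had a median log2 ratio of 0.16 in WT and 0.32 in KO, and none of 7 passed 2-fold in both libraries. Lag3, which binds MHC class II, was nearest, with ratios of 2.04 and 1.59, at 371 and 233 CPM. Entpd1, the ectonucleotidase CD39, had ratios of 1.5 and 0.94, and Havcr2, which encodes TIM-3, 0.99 and 1.05. For costimulatory receptors the medians were 0.55 and 0.61, with Cd27 at ratios of 2.06 and 1.54 and Tnfrsf18 at 1.49 and 1.39. For genes described in tissue and tumour regulatory T cells they were 0.39 and 0.21. In that list Gata3 was at least 2-fold lower in both libraries, with ratios of 0.39 and 0.29, and Klrg1, an inhibitory receptor of differentiated T cells, was 8.62 times conventional CD4 T barcodes in WT but 0.93 times in KO.

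Genes of other CD4 T cell states went in both directions. Of 4 effector cytokine genes with enough UMIs 1, Cd40lg, was at least 2-fold lower in both libraries and 0 higher, and in KO alone Il17a was also lower (0.12 from 10 UMIs) and Ccl5 higher (2.70). Of 8 genes of resting T cells 2, Tcf7 and S1pr1, were at least 2-fold lower in both libraries and 0 higher, with median log2 ratios of -0.31 and -0.42. In WT alone 1 of the 8 was higher and 3 lower, and in KO alone 1, the homing receptor gene Ccr7 (3.26), was higher and 2 lower. The next values are of genes picked after they were seen. Gata3, the transcription factor of type 2 helper cells, was at 53.1 and 37.5 CPM. The type 2 cytokine Il13 had 0 UMIs in WT and 1 in KO Foxp3+ T barcodes, against 118 and 18.0 CPM in conventional ones, and Il4 had 4 and 0 UMIs against 68.3 and 15.8 CPM. Cd40lg, the helper signal to B cells, had ratios of 0.25 and 0.09 from 12 and 6 UMIs. Tcf7, a factor of resting and memory T cells, had ratios of 0.28 and 0.18 from 14 and 8 UMIs, and S1pr1, a receptor for exit from tissue, had 0.30 and 0.20 from 10 and 7 UMIs. Pdcd4, a translation inhibitor, had 0.46 and 0.45.

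Genes were ranked by the smaller of their library ratios among those with at least 50 UMIs over both kinds of barcode in each library and at least 20% of their level in every class other than T cells. This leaves out Lrrc32, Itgb8, Cd40lg, Tcf7 and S1pr1, which had fewer UMIs in at least 1 library, and Prf1, which is far higher in NK barcodes. The highest were then Sdcbp2, Ikzf2, Itgae and Mthfd2. Sdcbp2 encodes the scaffold protein syntenin-2 and was at 101 and 74.0 CPM, 2.33 (1.52 to 3.68) and 2.53 (1.39 to 4.97) times conventional CD4 T barcodes and at most 0.95 and 0.98 CPM outside T cells. Among barcodes with none of the 6 macrophage genes the KO ratio of Sdcbp2 was 0.595, from 16 and 17 barcodes. Mthfd2, a mitochondrial enzyme of folate metabolism, had ratios of 2.13 and 2.11. Also named by rank were Tmem165, Cystm1, Copg1, Pcyt1a, Slc25a51, Lamc1, Dctpp1, the lymphocyte GTPase gene Gimap7 (2.42 and 1.97), the receptor gene Igflr1 (2.71 and 1.91) and Fn1, the fibronectin gene that macrophages also express (1.81 and 2.61). The lowest under the same UMI minimum were Mmp12 (0.26 and 0.33), a macrophage elastase, then Gata3, Fam102a, Pdcd4, Gm8369, Hspa1b, Trim12a, Hist1h1b and Dip2b. The part of other cells' RNA in Fn1 and Mmp12 was not tested. The plot of ratios within each library places these genes and the listed ones.

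**Figure D4:**
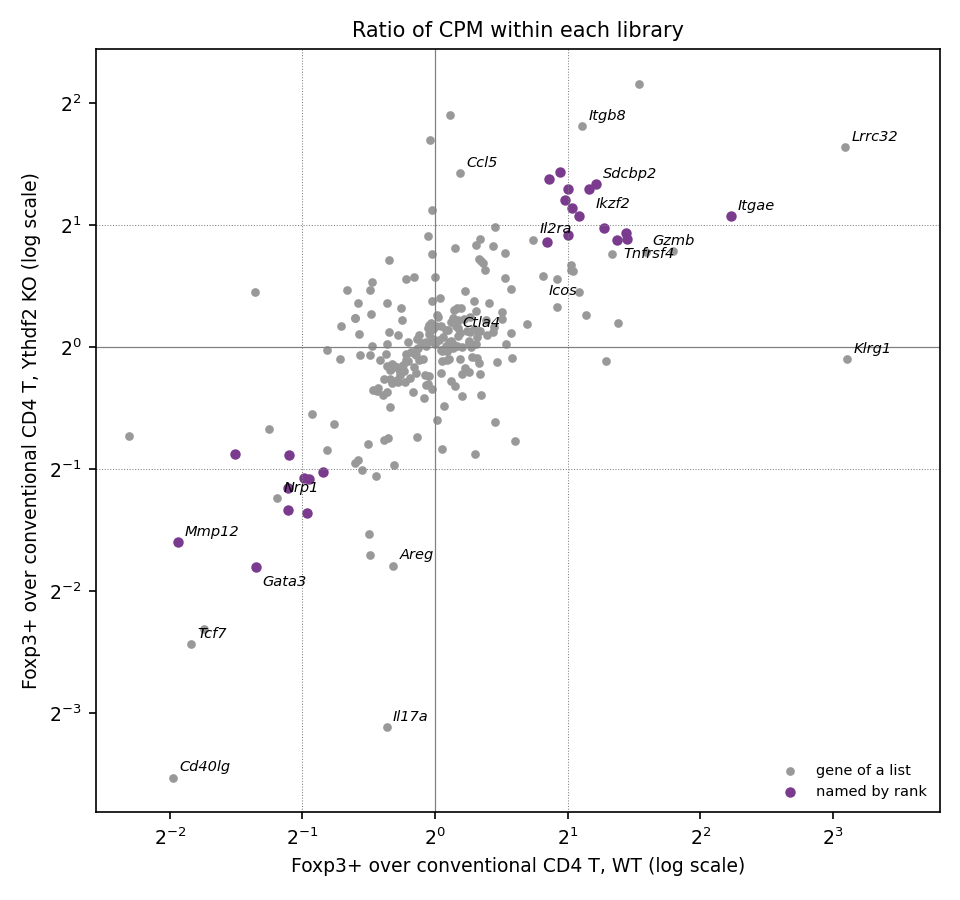
Ratio of CPM in Foxp3+ over conventional CD4 T barcodes, WT against KO, both axes on log scales; each point is a gene of a list or named by rank, and dotted lines mark 2-fold. Ikzf2, Sdcbp2, Itgae, Itgb8 and Lrrc32 lie beyond 2-fold in both libraries, Gata3, Tcf7 and Cd40lg below it, and Klrg1 is at 8.62 in WT and 0.93 in KO.

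The Foxp3 promoter is shown because Foxp3 defines these cells, and that of Sdcbp2 because it headed the genes ranked above the UMI minimum. Both are from RefSeq promoter windows on GRCm38.p6, written 5′ to 3′ on the gene's strand up to the base before the annotated start. Foxp3, an X-linked gene at chrX:7573644-7595245 in mm10, has 2 listed starts, and the windows of both lie inside that gene span. The window at chrX:7580233-7580482 (plus strand) lies within an exon of the noncoding antisense gene Flicr. Sdcbp2 is at chr2:151572622-151590005 and its window at chr2:151572373-151572621 (plus strand). Capitals mark matches to cores searched on both strands: TGTTTAC of forkhead factors such as Foxp3, GGAAA of NFAT, TTCNNNGAA of STAT factors and TGANTCA of AP-1.
Foxp3: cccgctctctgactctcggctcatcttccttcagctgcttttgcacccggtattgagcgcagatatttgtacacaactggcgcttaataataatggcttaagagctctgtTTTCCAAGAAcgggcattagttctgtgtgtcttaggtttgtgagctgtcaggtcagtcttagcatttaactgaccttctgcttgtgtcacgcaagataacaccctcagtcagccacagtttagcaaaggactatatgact
Sdcbp2: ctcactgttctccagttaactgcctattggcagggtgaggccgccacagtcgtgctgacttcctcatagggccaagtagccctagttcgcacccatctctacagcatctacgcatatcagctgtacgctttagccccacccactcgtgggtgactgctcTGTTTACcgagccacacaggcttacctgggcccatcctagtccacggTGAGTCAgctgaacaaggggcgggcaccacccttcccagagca
In this Foxp3 window an NFAT core on the minus strand overlaps a STAT core, while Sdcbp2 holds a forkhead core and an AP-1 core. The window of the other Foxp3 start, 141 bases at chrX:7579426-7579566, holds an NFAT core and no STAT core. The forkhead core occurs in 3.17% of 32851 promoters of 250 bases, the NFAT core in 55.6%, the STAT core in 7.02% and the AP-1 core in 6.75%. Of the 9 genes named higher than conventional CD4 T barcodes that the table held, 1 had a forkhead core, 7 an NFAT core, 0 a STAT core and 1 an AP-1 core. A match is a run of letters and shows no binding.

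Genes of several states were measured within the Foxp3+ T barcodes. At least 1 UMI of the tissue receptor genes Ccr8, Tnfrsf9, Il1rl1 or Klrg1 was present in 53.1% (43.5 to 62.5) of WT and 48.8% (37.7 to 60) of KO barcodes at 1000 UMIs, and in 94.7% and 92.9% unthinned. Conventional CD4 T barcodes were at 27.8% and 31.6% when thinned, NK cells at 47.9% and 44.5%, and B cells at 0.8% and 2.3%. Most of that came from Tnfrsf9, detected unthinned in 91.2% and 89.4%, and from Klrg1, in 45.6% and 44.7%. Ccr8, a chemokine receptor reported on tumour regulatory T cells, was detected in 4.39% and 8.24% unthinned and in none at 1000 UMIs, and Il1rl1, the interleukin 33 receptor, in 5.26% and 3.53%. At this depth Ccr8 and Il1rl1 allowed no statement about separate subsets.

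The thymic genes Ikzf2 or Nrp1 were found in 43.4% (34.1 to 53.0) and 39.3% (28.8 to 50.5) when thinned, against 26.7% and 15.8% of conventional CD4 T barcodes. At least 2 UMIs of the cycling genes Mki67, Top2a, Stmn1, Pclaf and Birc5 were present in 2.65% (0.6 to 7.6) and 7.14% (2.7 to 14.9) when thinned and in 14% and 24.7% unthinned, with 13.9% and 12.8% of NK barcodes when thinned. The intervals of WT and KO overlapped for each of these 3 groups.

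Barcodes with 3 or more Foxp3 UMIs were set beside those with 1, after thinning to 1000 UMIs, as a description within the rule. The genes with the widest gap, in the same direction in each library, began with Epsti1, an interferon-induced gene, detected in 16.2% of barcodes with 1 Foxp3 UMI and 43.7% of those with 3 or more over both libraries. Rpl36al went from 45.9% to 70.4%, Ifitm2, also interferon-induced, from 47.3% to 69.0%, and Anxa5, which encodes the phospholipid binding annexin A5, from 12.2% to 33.8%. The amino acid transporter gene Slc38a2 went the other way, from 31.1% to 9.9%, and so did Maf, a transcription factor that drives Il10, from 66.2% to 46.5%. The groups held 42 and 39 WT and 32 and 32 KO barcodes. Depth differed along with the split, with medians of 6433.5 against 8984 UMIs in WT and 6811 against 12790 in KO, and Ms4a6d, a macrophage gene, went from 18.9% to 38.0%. Their part in these gaps was not tested.

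Between the libraries, genes with at least 20 UMIs summed over both were compared as KO over WT. Of 7503 genes, 628 (8.37%) were at least 1.5-fold higher in KO and 799 (10.6%) at least 1.5-fold lower. Counts of list genes between the libraries are read only beside these shares. None of the 5 marker genes passed 1.5-fold. Foxp3 was at 275 CPM (243 to 310) in WT and 219 (190 to 251) in KO. The ratio was 0.75 (0.66 to 0.85) for Il2ra, 0.78 (0.68 to 0.89) for Ikzf2, 0.84 (0.72 to 0.98) for Ctla4 and 0.77 (0.70 to 0.84) for Tnfrsf4. The CPM of all 5 were thus lower in KO, while the median UMIs per barcode were 4 and 4 for Il2ra and for Ikzf2 and 9 and 9 for Tnfrsf4. General T cell genes were lower in the same barcodes too. The 9 T cell markers, among them the Cd3 genes of the rule, summed to 28.8 UMIs per 10000 in WT and 22.7 in KO. Trac was at 512 and 361 CPM. Whether the lower CPM of the 5 markers goes beyond that of T cell RNA as a whole was not tested. In barcodes with none of the 6 macrophage genes (32 WT, 16 KO) the ratios lay on both sides of 1. They were 0.87 (0.55 to 1.36) for Foxp3, 0.98 (0.79 to 1.20) for Tnfrsf4, 1.04 (0.76 to 1.41) for Il2ra, 1.19 (0.87 to 1.61) for Ikzf2 and 2.10 (1.41 to 3.14) for Ctla4. The 4 markers other than Foxp3 summed to 1.13 (0.99 to 1.30) there, and to 1.04 (0.89 to 1.20) without Ctla4. In the deepest 38 WT and 28 KO barcodes the 4 summed to 0.71.

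Of 8 measured costimulatory receptors, 0 were at least 1.5-fold higher in KO and 1 lower, Tnfrsf8 at 0.56 (0.29 to 1.04), beside the 10.6% lower over all genes. Their log2 ratios lay between -0.84 and -0.01, with a median of -0.38 beside -0.01 over all genes. Icos, at 935 in WT and 711 in KO, had a ratio of 0.76 (0.69 to 0.84), and in barcodes with macrophage RNA it was 1.05. Tnfrsf18 had 0.77 (0.69 to 0.86) and Tnfrsf9 0.78 (0.68 to 0.89). The sum of the T cell markers was also lower in KO, as given above, and its part in these ratios was not tested. Of 8 inhibitory receptors and ectoenzymes 3 were at least 1.5-fold lower and 0 higher, with a median of -0.49. These were Nt5e, the ectonucleotidase CD73 (0.46, 0.22 to 0.91), Tigit, a receptor for nectins (0.24 from 17 and 4 UMIs), and Lag3 (0.63, 0.53 to 0.75). Pdcd1, which encodes PD-1, was at 0.67 (0.41 to 1.10). Lag3 was at 0.92 in the barcodes with macrophage RNA, so the size of its gap differed between the 2 sets of barcodes.

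Among 12 suppressive mediators 2 were at least 1.5-fold lower in KO, Il10 and Areg, and 0 higher, with a median log2 ratio of -0.16. Over all genes 10.6% were lower and 8.37% higher, so the count itself says little about the list. Il10 was at 307 CPM in WT and 144 in KO, a ratio of 0.47 (0.38 to 0.57), and was detected in 58 of 114 and 32 of 85 barcodes. The highest WT barcode held 9.97% of its UMIs and the highest KO barcode 11.6%. Thinned to 1000 UMIs, Il10 was present in 21.2% (14.1 to 29.9) and 17.9% (10.4 to 27.7), against 1.6% in macrophages of either library and 0.2% and 0.1% in NK barcodes. In barcodes with none of the 6 macrophage genes the ratio was 0.78 (0.48 to 1.24), and in those with macrophage RNA 0.77. Il10 was lower in the KO library in each of these sets, with an interval that held 1 in the smallest. Areg was at 269 and 150, but 43.0% of the WT UMIs came from 1 barcode, the ratio without the highest barcode of each library was 0.80, and the barcodes with macrophage RNA gave 1.21.

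Gzmb had a ratio of 0.72 (0.67 to 0.76) with a median of 15 UMIs per barcode in each library. It was 0.91 in barcodes with macrophage RNA and 1.15 (1.00 to 1.32) in those with none of the 6 macrophage genes, so its direction was not the same in each set. Fgl2, a secreted suppressive protein, was at 389 and 422, a ratio of 1.08 (0.94 to 1.25), and Tgfb1 was also at 1.08 (0.89 to 1.31). Lrrc32 was at 1.06 (0.60 to 1.89), Itgb8 at 0.84 (0.53 to 1.32) and Ebi3, a subunit of interleukin 35, at 1.06 (0.72 to 1.57). These intervals held 1 for each gene of the TGF-beta activating set.

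Among 13 tissue and tumour regulatory T cell genes 3 were at least 1.5-fold lower in KO and 0 higher, with a median log2 ratio of -0.16. Over all genes 10.6% were lower and 8.37% higher. Irf4, a transcription factor of effector regulatory T cells, was at 79.7 and 37.5, a ratio of 0.47 (0.31 to 0.71). Rora, a nuclear receptor of tissue lymphocytes, was at 183 and 94.8, a ratio of 0.52 (0.40 to 0.67). Samsn1, an adaptor, had 0.67 (0.58 to 0.76). In barcodes with macrophage RNA these ratios were 0.88, 0.85 and 0.81, closer to 1. Batf, the partner of Irf4, was at 1.08 (0.73 to 1.60), Prdm1 at 0.81 (0.58 to 1.12) and Maf at 0.90 (0.81 to 0.99).

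Of 23 transcription factors 1 was at least 1.5-fold higher, Bcl6 at 1.64 (0.95 to 2.89), and 3 lower, Nr4a2, Foxo1 and Ikzf3, with a median of -0.10. Nr4a2, a nuclear receptor induced by T cell receptor signals, was at 92.9 and 32.3, a ratio of 0.35 (0.22 to 0.53), and 0.61 with macrophage RNA. Its relatives were not lower: Nr4a1 was at 1.07 (0.90 to 1.28) and Nr4a3 at 1.27 (0.99 to 1.64). Of 13 genes of the interleukin 2 receptor and STAT5 pathway 2 were lower, Socs2 at 0.55 (0.40 to 0.74) and Bcl2 at 0.51 (0.26 to 0.98), and 0 higher, with a median of -0.23. Of 13 T cell receptor and immediate early genes 0 passed 1.5-fold in either direction. Beside these counts, 8.37% of all genes were higher and 10.6% lower, so those of the transcription factors and the interleukin 2 pathway say little about the lists.

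Cytotoxic genes had the lowest median of the lists, -1.33 on the log2 scale, with 5 of 9 at least 1.5-fold lower in KO and 0 higher, beside 10.6% and 8.37% over all genes. Nkg7, a membrane protein of cytotoxic granules, was at 567 and 225, a ratio of 0.40 (0.34 to 0.47), and was detected in 70.2% and 47.1% of barcodes. The others were Gzma, Gzmc, Gzmd and Gzme. Gzma had 0.30 (0.24 to 0.39) with 50% of its WT UMIs in 1 barcode, and Gzmc 0.35 (0.27 to 0.45). The NK markers other than Gzma were at 0.16 per 10000 in WT and 0.18 in KO in the same barcodes, and the rule limits 3 of these 5. In barcodes with none of the 6 macrophage genes Nkg7 was at 0.43 (0.26 to 0.68), and in barcodes with macrophage RNA it was at 0.65 while Gzmc was at 1.29.

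Beside 8.37% higher and 10.6% lower over all genes, proliferation genes had 5 of 16 higher in KO and 0 lower, the most higher of any list. Their median log2 ratio was 0.18. The higher genes were Pclaf, a PCNA partner in DNA replication (2.34, 1.63 to 3.42), Ube2c, a ubiquitin enzyme of mitosis (2.87, 1.72 to 4.97), Tubb5 (1.53, 1.30 to 1.81), Cdk1 (1.88, 0.92 to 4.03) and Tyms (1.76, 0.95 to 3.34). Mki67, the usual marker of dividing cells, was at 0.81 (0.53 to 1.24) and Top2a at 1.07 (0.75 to 1.52). Pclaf was detected in 13 WT and 15 KO barcodes and Ube2c in 5 and 11, so few barcodes carried these UMIs, and 1 barcode held 52.4% of those of Ube2c in WT and 37.3% in KO.

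Other lists differed less. Oxidative phosphorylation (20 genes, median 0.14), ribosomal proteins (18, 0.08), glycolysis and hypoxia (17, -0.10) and MHC class I (13, -0.16) had 0 genes past 1.5-fold in either direction. Of 15 interferon response genes 1 was lower, Ifi44 at 0.49 (0.31 to 0.75), and of 10 homing receptors 1, Cxcr6 at 0.65 (0.50 to 0.85), with medians of -0.13 and -0.08. Of the factors of resting T cells, Lef1 was at 2.17 (0.89 to 5.81) and Tcf7 at 0.58 (0.21 to 1.49), and the interleukin 7 receptor gene Il7r was at 0.66 (0.58 to 0.76). Of 4 effector cytokines 1 was higher, Ccl5 (1.53, 1.44 to 1.63, but 0.63 with macrophage RNA), and 1 lower, Ifng (0.25 from 29 and 7 UMIs). Of 10 heat shock genes 4 were lower and 0 higher, with a median of -0.47, namely Hspa1a, Hspa1b, Dnajb1 and Hsph1, with Hspa1b at 0.52 (0.41 to 0.64). Of 9 m6A genes 1 was higher, Fto at 1.81 (0.88 to 3.88), and 0 lower. Over all genes 8.37% were higher and 10.6% lower, so counts of 1 in these lists say little about them.

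**Figure D5:**
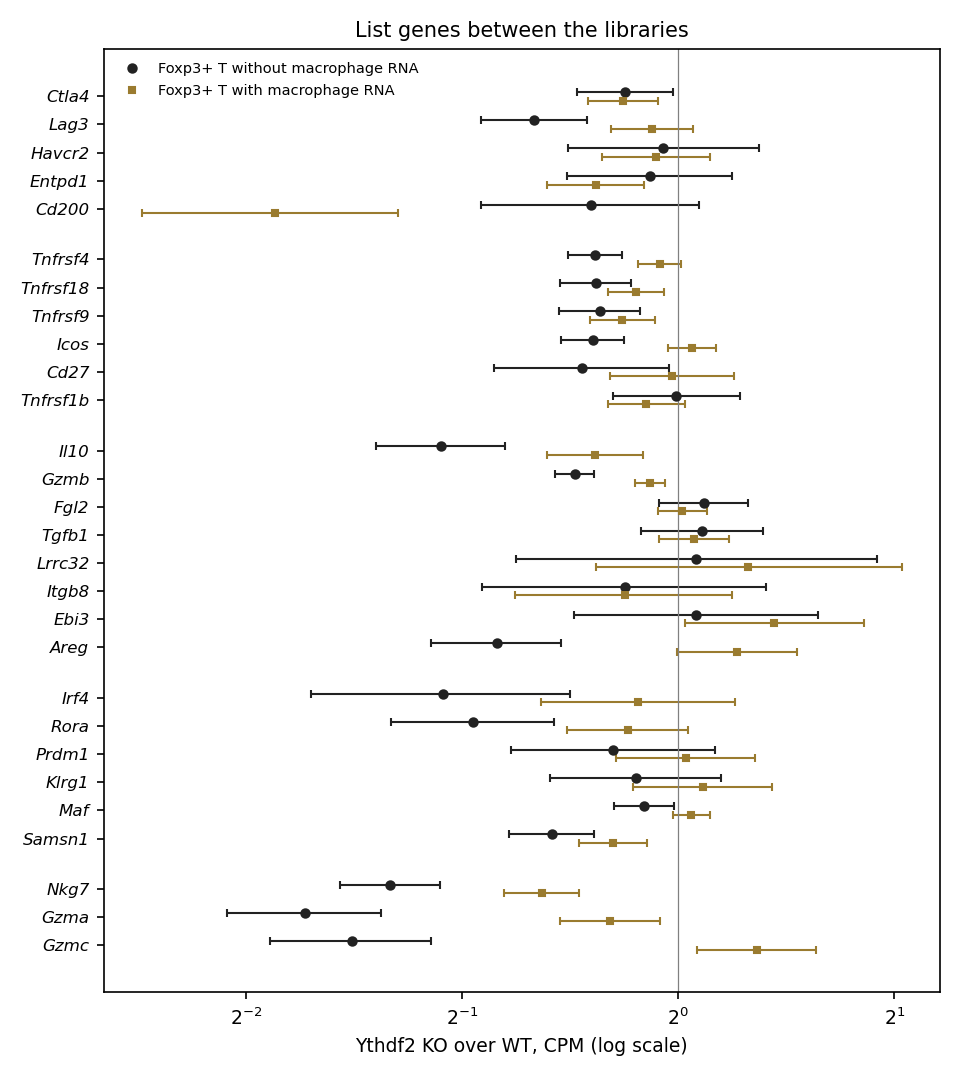
KO over WT ratio of CPM on a log scale for listed genes, in Foxp3+ T barcodes without macrophage RNA (circles) and with it (squares); bars are exact 95% intervals that cover counting error only. Il10 is at 0.47 and 0.77, Irf4 at 0.47 and 0.88 and Nkg7 at 0.40 and 0.65, while Gzmc lies on opposite sides of 1.

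By rank, the genes named as higher in KO began with Il12b and Cxcl1, and 8 more followed: Gm42031, Pltp, Ube2c, Cnn3, Entpd7, Il1b, Farsa and Asph. Il12b, the p40 subunit of interleukin 12 made by dendritic cells and macrophages, was at 15.3 in WT and 131 in KO, with 54.0% of the KO UMIs in 1 barcode and a UMI in 5 WT and 8 KO barcodes. Il1b, a myeloid cytokine, was at 759 and 2106, a ratio of 2.78 (2.55 to 3.02), in 62 WT and 61 KO barcodes. In barcodes with none of the 6 macrophage genes Il1b was at 635 and 103, a ratio of 0.16, so its direction was the opposite. Pltp, a lipid transfer protein of macrophages, had 3.06 (1.67 to 5.91) without and 0.54 with macrophage RNA. The highest ratios thus belonged in part to genes of myeloid cells.

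The genes named as lower in KO began with Saa3, Gm15056, Nr4a2, Zc3h12d and Ncoa4, followed by Bclaf3, Ing4, Cyhr1, Nrp2 and Nkg7. Saa3, an acute phase protein of myeloid cells, was at 412 and 34.4, but 96.5% of the WT UMIs came from 1 barcode. Without the highest barcode of each library its ratio was 1.56. Zc3h12d, which encodes an RNA-degrading regulator of lymphocyte activation, was at 64.3 and 24.0, a ratio of 0.37 (0.22 to 0.61), and 0.80 in barcodes with macrophage RNA. Ncoa4, the receptor that delivers ferritin for breakdown, had 0.38 (0.20 to 0.67) and 0.66. A further 18 genes passed the same size and counting conditions at under 20% of their level in a class other than T cells, 8 higher and 10 lower, among them Spp1 (245 and 515), Apoe (709 and 360), Gzma and Gzmc. Of the classes other than T cells, Spp1 was highest in NK barcodes (3636 CPM in WT and 3561 in KO, against 639.5 and 727 in macrophages), Apoe in macrophages (5111 and 2153), and Gzma and Gzmc in NK barcodes. These 18 are therefore given apart, and the source of their UMIs was not tested.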

How the data were processed

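Gene by barcode matrices of raw UMI counts were deposited for 1 WT and 1 Ythdf2 KO library (20886 and 16312 barcodes). Reads were processed with Cell Ranger 5.0.1 and mm10, and Seurat 4.0.4 was used, per the submitters' processing notes, while the matrices carry Cell Ranger 6.1.1, per the file headers. The labels give no batch or replicate. The comparison classes were likewise chosen by raw UMI sums. UMIs were summed over the barcodes of a class and divided by the class total (CPM); cells were not treated as replicates, so no test was run. Intervals are Clopper-Pearson for shares, Poisson for levels and conditional binomial for ratios, and floors use 3 counts. Thinning drew 1000 UMIs per barcode without replacement. Doublets were not removed; as an alternative, the highest 8% by Scrublet score were left out, which took 4 of 114 WT and 6 of 85 KO Foxp3+ T barcodes, since the automatic threshold marked only 0.0245% of WT barcodes.

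Genes named between libraries had at least 50 UMIs, UMIs in 10 barcodes, at least 20% of their level in every class other than T cells, a 1.5-fold gap and an interval that left out 1; the 10 highest and 10 lowest ratios are named, and those under 20% apart. Against conventional CD4 T barcodes the 15 highest and 10 lowest by the nearer of the library ratios are named, of genes with 50 UMIs over both kinds of barcode in each library and the same 20% condition (for the lowest, on the conventional level), and a few items are not reported here. Members and lists were chosen with earlier results of these data known. Alternatives changed limits on genes, mitochondrial UMIs, Foxp3, Cd3, macrophage RNA, other cells' RNA, doublets, weights and UMI minimum. Scripts were tested on simulated data. The intervals came from scipy 1.17.1, Scrublet from scanpy 1.11.5 and the figures from matplotlib 3.10.9, under Python 3.11.15.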

Additional observations from a re-analysis of the deposited data

Results flagged for a closer look

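The ratio of Foxp3+ to conventional CD4 T barcodes went at least 2-fold in opposite directions in the libraries for 22 of the 6304 genes compared, and 3 of those were named by rank or belong to a list. Pltp was at 0.470 times conventional CD4 T barcodes in WT and at 3.47 times in KO. Gm15056 was at 6.33 and 0.243 times. Mmp8, a neutrophil collagenase, was at 2.59 and 0.462 times. The difference between the libraries was not tested, since each library gives 1 value.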

How the results depend on the processing

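The alternatives with no UMI of the 6 macrophage genes and without the highest barcode of each library were added after seeing the data. For shares and counts of genes, 68 values under the alternatives stayed within their interval or 1.5 times and 24 moved. For named genes between libraries 216 stayed, 27 moved and 6 turned direction, and against conventional CD4 T barcodes 527, 61 and 8. List medians against conventional CD4 T barcodes gave 512, 43 and 5. Counts of genes are given as KO higher, KO lower, above and below conventional CD4 T barcodes, against 628, 799, 32 and 32. With 2 or more Foxp3 UMIs, 20 were above; with macrophage RNA counted in, 19 below; without neutrophil, B or dendritic cell RNA, 20 below. A macrophage limit of 5 (48 WT, 22 KO barcodes) gave KO over WT ratios of the share of 0.591 for kept barcodes (0.961 at the limit of 20) and 0.633 for T barcodes (1.03). It gave 382, 463 and 11 below, but of fewer genes tested, so the shares of genes were 13.9% KO higher and 16.8% KO lower of 2755 (8.37% and 10.6% of 7503 before) and 0.683% below of 1610 (0.508%). With no macrophage UMI (32 and 16 barcodes) the share ratios were 0.644 and 0.690, and the counts 248, 292 and 12, or 16.3% and 19.2% of 1517 and 1.37% of 877. Equal weight for each barcode gave 1005 KO higher, 91 above and 62 below. A minimum of 50 UMIs gave 224, 302, 8 and 5 (4.70% and 6.33% KO higher and lower), and every gene with a UMI 1743, 1894, 115 and 208 (15.1% and 16.4%). Ratios that turned direction were as follows, and the cause was not tested. With 2 or more Foxp3 UMIs Fn1 over conventional CD4 in WT was 0.921, and with macrophage RNA counted in Pltp between libraries was 0.677. At the limit of 5, Farsa was 0.825 and Gm15056 1.86 between libraries, and in KO over conventional CD4 Pcyt1a was 0.998, Mmp12 6.98 and Hist1h1b 2.99. With no macrophage UMI, Il1b was 0.162 and Nrp2 1.04 between libraries, and in KO over conventional CD4 Sdcbp2 was 0.595, Pcyt1a 0.992 and Hist1h1b 1.49. With equal weights Hist1h1b in KO was 1.10 and the WT median log2 of cytotoxic genes -0.0195. The KO median of effector cytokines over conventional CD4, -1.49, became 0.20 without neutrophil, B or dendritic cell RNA, 0.13 without shared barcodes, 0.78 at 50 UMIs and 3.12 with no macrophage UMI. Saa3 was 1.56 without the highest barcodes. Of list medians between the libraries 259 stayed, 21 moved and 0 turned direction. No paired analysis was possible because each genotype has 1 library. Depth limits genes such as Ccr8, which had 6 and 8 UMIs.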
